A study of Homo sapiens with 33 samples.

Results

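The genes of cholesterol and fatty acid synthesis that respond to the sterol regulatory element-binding proteins (SREBPs) were followed in Karpas422 cells given EED226. The group was a list of 34 genes, and each was read by its brightest probe set, the one with the highest mean over all 33 arrays among probe sets that carry 1 gene symbol. By that rule 31 of the 34 were measured, out of 19775 genes in all. FDFT1, CYP51A1 and FADS1 had no probe set with a single symbol and were not analysed here. The rule for probe sets used no difference between conditions.

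Karpas422 is an established human cell line from a diffuse large B cell lymphoma, and the series title gives it a mutant EZH2, the methyltransferase subunit of Polycomb repressive complex 2 (PRC2). EED226 is an allosteric inhibitor of PRC2 that binds its EED subunit. RNA came from cells given EED226 at 5 µM for 8 h and for 1, 2, 3 and 6 days, from cells given DMSO, the solvent, for the same times, and from cells at 0 h, with 3 arrays in each of the 11 groups. All cells were grown in RPMI-1640 medium with fetal bovine serum, and all groups are of this 1 line. The titles name the 3 arrays of a group as replicates and the design text calls them biological triplicates. How the cells at 0 h were handled is not given in the sources used here, so time in culture and DMSO cannot be told apart in a comparison of DMSO with 0 h. The protocol text also names another inhibitor, and the groups used here follow the array titles, which name EED226.

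Every value is a log2 level after robust multi-array average (RMA) normalisation, as deposited. A difference of 1 is a change by a factor of 2. Differences are given ± SE from 1 limma model of all 33 arrays, and a gene is said to have passed, risen or fallen where its Benjamini-Hochberg adjusted p over 19775 genes was under 0.05. RMA puts all arrays on 1 scale, so fewer cells that express a gene and less RNA per cell cannot be told apart. The arrays' medians lay between 4.06 and 4.18. B cell genes were high on every array, with MS4A1 at 11.94 to 13.11 and PAX5 at 11.21 to 11.77, while the T cell gene CD3D was also at 7.69 to 9.43. Some of these moved with EED226 on day 6. By limma 3 of 5 B cell markers were higher than in DMSO and 0 lower, and 0 of 6 T and NK cell markers were higher and 2 lower. Among all genes 51.0% passed in that comparison, 23.7% higher and 27.3% lower. CD79B averaged 11.40 in EED226 and 10.32 in DMSO, MS4A1 13.05 in EED226 and 12.51 in DMSO, CD22 9.005 in EED226 and 8.17 in DMSO, and CD3D 8.09 in EED226 and 9.04 in DMSO, all 4 past the threshold. On day 6 the mean over the 5 B cell markers was 10.60 to 10.79 in EED226, 9.92 to 10.31 in DMSO and 9.97 to 10.27 at 0 h, and that over the 6 T and NK cell markers was 4.25 to 4.44 in EED226, 4.497 to 4.75 in DMSO and 4.59 to 4.73 at 0 h. Their part in the results was not tested. Of 6 myeloid markers 1, LYZ, was higher than in DMSO on day 6 and 2, MPO and S100A8, were lower. CD14, CSF1R, MPO, S100A8 and S100A9 averaged 2.88, 3.73, 2.76, 2.75 and 2.81 in EED226 on day 6. In DMSO these averaged 3.15, 3.88, 3.10, 3.21 and 3.05. LYZ averaged 5.50 in EED226 and 3.22 in DMSO at that time. Replicate 3 of DMSO on day 6 stood apart from the other arrays in its upper quartile, which was 6.10 against 6.47 to 6.74 on the other 32 arrays, and each result on day 6 was also taken without it.

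SREBPs are made as membrane proteins of the endoplasmic reticulum and are held there by SCAP and the INSIG proteins when sterols are plentiful. When sterols fall, SCAP carries them to the Golgi, where proteases release the part that enters the nucleus and binds sterol regulatory elements. SREBP-2, from SREBF2, acts mainly on the mevalonate and sterol genes, and SREBP-1, from SREBF1, mainly on the fatty acid genes. SREBF1, SREBF2 and INSIG1 are themselves targets, so their mRNA is part of the feedback loop. Growing lymphoid cells use the pathway for membrane lipid.

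The promoters of 4 of the genes show how differently the sequence motifs tied to SREBPs lie in this group. RefSeq promoter windows on GRCh38.p14, 250 bases before to 50 after the annotated start, were found for 28 of the 31 measured genes. INSIG1 is shown for its rise in DMSO, MSMO1 as a gene that rose in DMSO and holds several CCAAT boxes, SREBF2 as the one window with a sterol regulatory element, and TMEM97 as a gene that did not rise in DMSO. Each line holds the 250 bases before the start, 5′ to 3′ on the plus strand of the genome, which is the gene's strand for all 4, and capitals mark a motif match on either strand. The windows are chr7:155297628-155297877 for INSIG1, chr4:165327419-165327668 for MSMO1, chr22:41832855-41833104 for SREBF2 and chr17:28318950-28319199 for TMEM97.
INSIG1: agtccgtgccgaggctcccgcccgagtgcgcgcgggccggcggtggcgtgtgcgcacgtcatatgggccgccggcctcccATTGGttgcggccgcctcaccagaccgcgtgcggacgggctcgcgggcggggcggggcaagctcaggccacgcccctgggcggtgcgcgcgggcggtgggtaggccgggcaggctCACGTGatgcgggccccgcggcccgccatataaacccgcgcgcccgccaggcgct
MSMO1: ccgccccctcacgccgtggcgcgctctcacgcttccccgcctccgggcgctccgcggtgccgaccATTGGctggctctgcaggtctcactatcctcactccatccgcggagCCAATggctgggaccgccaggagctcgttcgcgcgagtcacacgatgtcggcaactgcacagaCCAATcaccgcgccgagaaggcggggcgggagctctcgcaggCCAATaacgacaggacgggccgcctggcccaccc
SREBF2: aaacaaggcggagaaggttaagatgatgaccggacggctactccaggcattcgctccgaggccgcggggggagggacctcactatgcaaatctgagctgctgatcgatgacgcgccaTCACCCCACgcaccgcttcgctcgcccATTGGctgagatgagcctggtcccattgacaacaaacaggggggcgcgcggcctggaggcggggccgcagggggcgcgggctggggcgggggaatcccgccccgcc
TMEM97: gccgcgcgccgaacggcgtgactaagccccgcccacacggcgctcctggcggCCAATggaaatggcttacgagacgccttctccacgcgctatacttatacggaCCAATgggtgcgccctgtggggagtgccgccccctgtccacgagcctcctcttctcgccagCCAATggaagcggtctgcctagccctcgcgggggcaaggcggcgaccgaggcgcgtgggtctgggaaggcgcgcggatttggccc

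The sterol regulatory element was searched as TCACNCCAC, the E-box as CACGTG and the CCAAT box as CCAAT, each on both strands over the 300 bases, and no searched motif overlaps another in the 4 windows shown. SREBF2 alone held the sterol regulatory element in this strict form, as TCACCCCAC at 133 to 125 bases before its start, which is 3.6% of the 28 windows against 1.13% of all 35093 windows. The E-box was in the windows of LSS, SC5D and INSIG1, or 10.7% against 7.26%. INSIG1's lies 55 to 50 bases before its start. A CCAAT box, which the factor NF-Y binds, was in 19 of the 28 windows, or 67.9% against 34.61% of all windows. MSMO1 held 4 and TMEM97 held 3 of them within 250 bases, while the windows of MVK and NSDHL held 5 each over the 300 bases. Of the 15 genes with a window that rose in DMSO on day 6, 11 held a CCAAT box, and of the other 13, 8 did. The 28 genes had a single window each, the first listed, while the 35093 windows can hold several of a gene. Those windows were also not limited to genes measured here, so the shares are of unlike sets. These are matches of letters and say nothing of binding in these cells.

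In DMSO 4 of the 31 genes were higher than at 0 h on day 2, 19 on day 3 and 18 on day 6, and none fell at any time tested. At 8 h 0 of 31 genes passed against 0 h by limma, where 0% of all genes passed, and 0 had an unadjusted p under 0.05. On day 1 0 passed, 3 had an unadjusted p under 0.05, and 0.177% of all genes passed, 0.157% higher and 0.0202% lower. On day 2 4 genes were higher and 0 lower, against 0.890% of all genes, of which 0.713% were higher and 0.177% lower. On day 3 19 were higher and 0 lower, against 3.02%, of which 2.11% were higher and 0.910% lower. On day 6 18 were higher and 0 lower, against 1.72%, of which 0.829% were higher and 0.895% lower. The group's median difference was 0.24 on day 2, 0.46 on day 3 and 0.44 on day 6, and the median of all genes was -0.00, -0.01 and -0.02 at those times. The 5 comparisons share the 0 h arrays, so they are not independent of each other. These calls rest on the spread estimated over all 33 arrays: with only the 6 arrays of DMSO on day 6 and 0 h in the model, INSIG1 and SCD alone passed on day 6, where 0.0759% of all genes passed, and the other 16 of the 18 calls were lost.

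The 4 genes that were already higher in DMSO on day 2 were INSIG1, SREBF1, SCD and MSMO1. INSIG1 rose by 1.21 ± 0.15, SREBF1 by 0.71 ± 0.13 with an adjusted p of 0.00384 in limma, SCD by 0.66 ± 0.11 and MSMO1 by 0.57 ± 0.10. They encode the retention protein of the pathway, the SREBP-1 precursor, the desaturase that makes oleate and a demethylase of the sterol ring, so they come from 3 of the 5 roles distinguished below. The count of 4 became 1 with only the arrays of the groups compared, and 7 with the replicate number as a block or among genes brighter than the median.

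INSIG1 had the largest rise of the group in DMSO. Its levels in DMSO were 9.47, 9.33 and 9.54 on day 1, 9.99, 9.87 and 10.27 on day 2, 10.74, 10.66 and 10.77 on day 3 and 10.89, 10.55 and 11.01 on day 6, against 9.02, 8.67 and 8.80 at 0 h. Every DMSO array from day 1 on lay above every 0 h array. On day 6 the difference was 1.99 ± 0.15, a 3.97-fold rise (adjusted p = 7.025e-10, limma), and only 3 of the 19775 genes had a larger positive difference. The other probe sets of INSIG1 gave 2.02 and 1.57 for this comparison.

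SCD had 11.65, 11.34 and 11.52 in DMSO on day 6 and 10.24, 10.37 and 10.24 at 0 h, a 2.34-fold rise of 1.22 ± 0.11 (adjusted p = 5.766e-08, limma). MSMO1 had 11.48, 11.14 and 11.44 in DMSO on day 6 and 10.45, 10.22 and 10.27 at 0 h, a 2.05-fold rise of 1.04 ± 0.10 (adjusted p = 1.046e-07). For both genes all DMSO arrays stood above all 0 h arrays. Among all genes SCD ranked 25 and MSMO1 ranked 33 from the highest in that comparison.

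**Figure D1:**
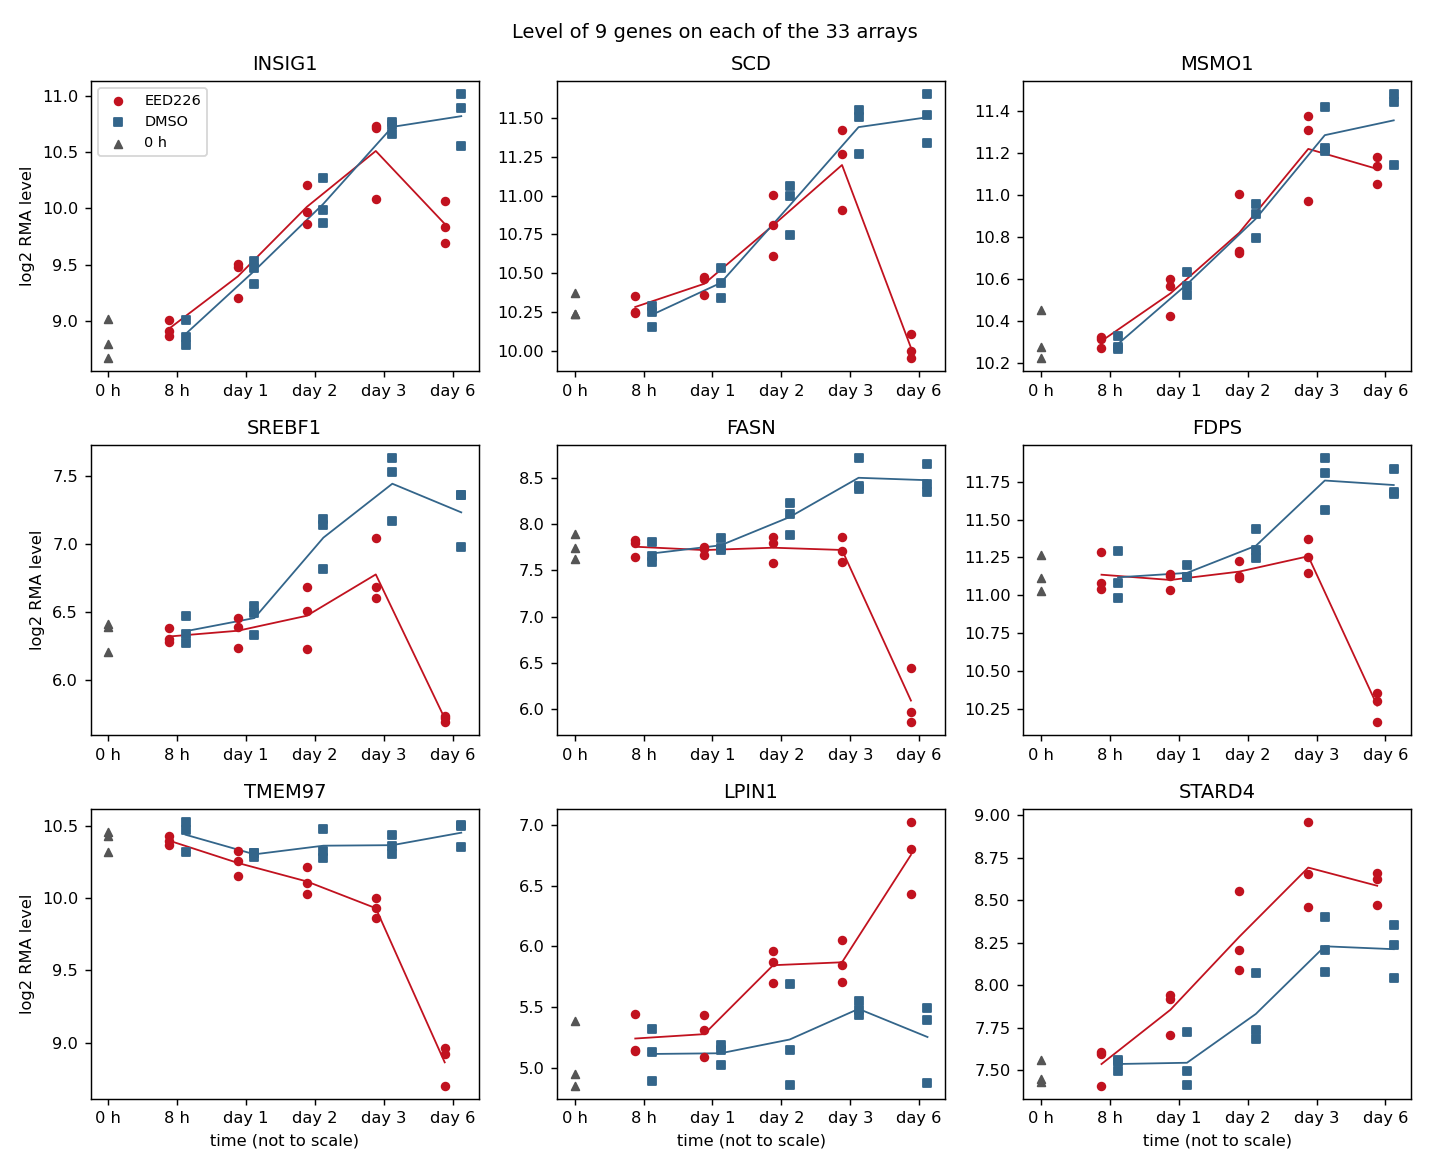
Log2 RMA level (vertical axes, each with its own range) of 9 genes on every array against time (horizontal axis, not to scale), with points for single arrays and lines through the group means of EED226 (circles) and DMSO (squares), and triangles for 0 h. The means of INSIG1, SCD and MSMO1 climbed in both treatments up to day 3, while FASN, FDPS and SREBF1 lay below DMSO on every EED226 array from day 2 on and were lowest on day 6, and LPIN1 and STARD4 lay higher in EED226.

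With EED226 most genes that passed were lower than in DMSO, and more genes passed on day 6 than on day 3. At 8 h 0 of 31 genes passed between EED226 and DMSO by limma, with 0 at an unadjusted p under 0.05 and 0% of all genes passing. On day 1 0 passed, 1 had an unadjusted p under 0.05, and 0.870% of all genes passed, 0.834% higher and 0.0354% lower. On day 2 2 genes were higher and 3 lower, against 9.44% of all genes, of which 6.76% were higher and 2.68% lower. On day 3 2 were higher and 14 lower, against 22.9% of all genes, of which 11.7% were higher and 11.2% lower. On day 6 4 were higher and 21 lower, against 51.0%, of which 23.7% were higher and 27.3% lower. The group's median difference was -0.13 on day 2, -0.24 on day 3 and -0.69 on day 6, and the median of all genes at those times was -0.03, -0.02 and -0.11. On day 3 the count was 10 without replicate 1 of DMSO and 10 without replicate 2 of EED226. EED226 minus DMSO and DMSO minus 0 h use the same DMSO arrays, so the values of the comparisons are given side by side and no relation between them was tested.

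**Figure D2:**
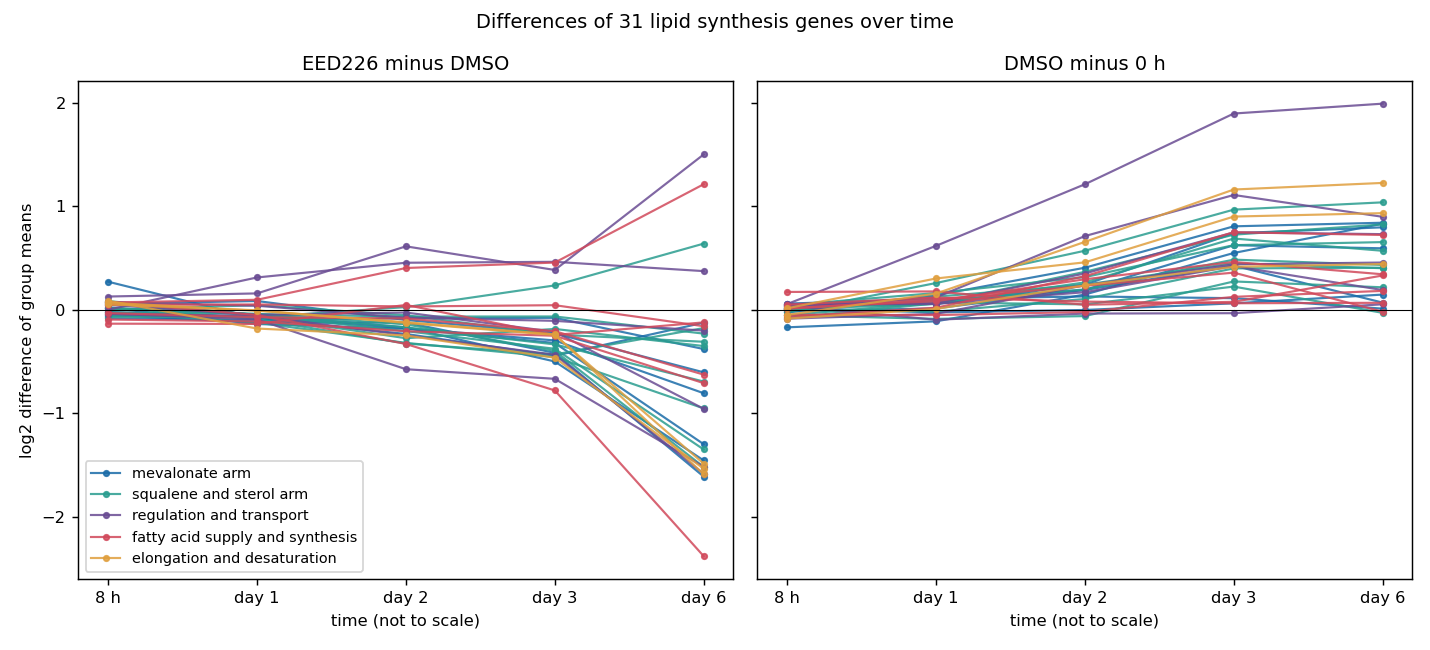
Log2 difference of group means (vertical axis) for each of the 31 measured genes, coloured by role, against time (horizontal axis, not to scale), for EED226 minus DMSO on the left and DMSO minus 0 h on the right. The lines on the right rise to medians of 0.46 on day 3 and 0.44 on day 6, and those on the left reach a median of -0.69 on day 6 with LPIN1, AACS, SC5D and STARD4 above 0.

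On day 2 the genes past the threshold between EED226 and DMSO were SREBF1, SQLE and TMEM97 below it and LPIN1 and STARD4 above it. SREBF1 had 6.50, 6.23 and 6.68 in EED226 and 7.14, 6.82 and 7.18 in DMSO, a difference of -0.57 ± 0.13 (adjusted p = 0.00415, limma). The EED226 arrays of SREBF1 on day 2 all lay below the DMSO arrays, and the 0 h arrays were at 6.39, 6.21 and 6.41. SQLE, the epoxidase of squalene, differed by -0.32 ± 0.09 and TMEM97 by -0.25 ± 0.08. Without replicate 1, 2 or 3 of DMSO on day 2 the count of 5 became 2, 3 and 2, and without replicate 2 or 3 of EED226 it became 1 and 3. With array medians set equal 2 genes were higher and 1 lower. Same-numbered arrays deviated together on day 2, and with the replicate number as a block 3 were higher and 4 lower.

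The mevalonate arm makes isoprenoid units from acetyl-CoA. The counts by role here and below are to be read against the shares of all genes. With EED226 11.7% of all genes were higher and 11.2% lower on day 3, and 23.7% higher and 27.3% lower on day 6. In DMSO against 0 h 2.11% were higher on day 3 and 0.829% on day 6. Of its 7 genes 0 were higher and 3 lower with EED226 on day 3, and 0 were higher and 6 lower on day 6, with medians of -0.32 and -0.81. In DMSO against 0 h 4 of the 7 were higher on day 3 and 4 on day 6, with medians of 0.55 and 0.59. FDPS makes farnesyl diphosphate, from which squalene and the prenyl groups of proteins are built. It had 11.25, 11.15 and 11.37 in EED226 and 11.80, 11.56 and 11.91 in DMSO on day 3. On day 6 it had 10.16, 10.30 and 10.35 in EED226 and 11.84, 11.67 and 11.68 in DMSO, with 11.11, 11.27 and 11.03 at 0 h. The EED226 arrays on day 6 thus lay below both other groups. EED226 minus DMSO for FDPS was -0.50 ± 0.09 (adjusted p = 0.00017, limma) on day 3 and -1.46 ± 0.09 (adjusted p = 2.676e-13) on day 6.

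ACAT2, the cytosolic thiolase that starts the arm, had 8.74, 8.60 and 8.64 in EED226 and 10.41, 10.17 and 10.24 in DMSO on day 6, and 9.40, 9.70 and 9.33 at 0 h. The EED226 arrays lay below the 0 h arrays, and the DMSO arrays above them. EED226 minus DMSO on day 6 was -1.61 ± 0.12 (adjusted p = 1.2e-11, limma). On day 3 it was -0.42 ± 0.12 (adjusted p = 0.0143), a call that was lost without replicate 1 or 3 of DMSO (adjusted p = 0.0724 and 0.0509), without replicate 2 of EED226 (0.113), or with the actin 3′ to 5′ difference as a covariate (0.0707). HMGCS1, the HMG-CoA synthase, had 9.30, 9.43 and 9.54 in EED226, 10.87, 10.62 and 10.69 in DMSO and 10.08, 9.89 and 9.71 at 0 h, with EED226 below and DMSO above the cells at 0 h.

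HMGCS1 differed by -1.30 ± 0.12 between EED226 and DMSO on day 6. PMVK and MVK, the kinases of phosphomevalonate and of mevalonate, differed by -0.61 ± 0.10 and -0.38 ± 0.12 on day 6. In DMSO against 0 h they differed by 0.01 ± 0.10 and 0.15 ± 0.12 and did not pass. MVD, the decarboxylase, passed in none of these comparisons, and its levels on the arrays of EED226 and DMSO on day 6, between 3.96 and 4.98, lie near the arrays' medians. IDI1, the isomerase of isopentenyl diphosphate, fell by 0.81 on the log2 scale on day 6 by its brightest probe set, and one other probe set gave -0.73. Its other 2 probe sets gave 0.39 and 0.95, in the opposite direction and past the threshold over all probe sets, so IDI1's direction depends on the probe set.

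In the squalene and sterol arm, which closes and trims the sterol ring, 0 of 9 genes were higher and 5 lower with EED226 on day 3, and 1 was higher and 6 lower on day 6, with medians of -0.34 and -0.35. In DMSO against 0 h 7 of 9 were higher on day 3 and 6 on day 6, with medians of 0.48 and 0.43. The shares of all genes with EED226 were 11.7% higher and 11.2% lower on day 3, and 23.7% and 27.3% on day 6. EBP, the sterol isomerase, had 7.26, 7.45 and 7.18 in EED226, 9.02, 8.81 and 8.61 in DMSO and 8.71, 8.70 and 8.39 at 0 h. All EED226 arrays lay below the others, and DMSO overlapped 0 h. The difference between EED226 and DMSO was -1.52 ± 0.11 (adjusted p = 5.796e-12, limma).

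DHCR7, the reductase that yields cholesterol, had 6.35, 6.33 and 6.25 in EED226 on day 6, 7.87, 7.64 and 7.48 in DMSO and 7.00, 6.79 and 6.72 at 0 h, so the 3 groups did not overlap. It differed by -1.35 ± 0.11 between EED226 and DMSO and by 0.82 ± 0.11 between DMSO and 0 h. SQLE had 9.87, 9.64 and 9.61 in EED226, 10.82, 10.50 and 10.66 in DMSO and 10.11, 9.998 and 9.91 at 0 h. Its differences were -0.95 ± 0.09 and 0.65 ± 0.09 in the same comparisons. NSDHL, a dehydrogenase of ring demethylation, differed by -0.69 ± 0.09 with EED226 and by 0.40 ± 0.09 in DMSO.

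MSMO1 and SC5D were not among the genes that fell with EED226. MSMO1 had 11.18, 11.14 and 11.05 in EED226 and 11.48, 11.14 and 11.44 in DMSO on day 6, which overlapped, and differed by -0.23 ± 0.10 (adjusted p = 0.0536, limma). It passed under some alternatives, with an adjusted p of 0.008 without replicate 2 of DMSO on day 6. SC5D, the desaturase that acts near the end of the arm, had 8.70, 8.57 and 8.51 in EED226, 8.22, 7.97 and 7.68 in DMSO and 7.65, 7.47 and 7.45 at 0 h. Its EED226 arrays lay above both other groups, by 0.64 ± 0.13 over DMSO (adjusted p = 0.00012). LSS, which closes the ring, and HSD17B7, a ketoreductase, fell by 0.35 and 0.31 on the log2 scale with EED226 on day 6, and had risen by 0.57 ± 0.10 and 0.41 ± 0.09 in DMSO. TM7SF2, a sterol reductase, fell by 0.43 on the log2 scale on day 3 and differed by -0.18 ± 0.11 on day 6.

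The 6 regulatory and transport genes went in both directions with EED226, as did all genes. On day 6 2 were higher and 3 lower, where 23.7% of all genes were higher and 27.3% lower. On day 3 1 was higher and 2 lower, where 11.7% of all genes were higher and 11.2% lower. In DMSO against 0 h 4 of 6 were higher on day 3 and 4 on day 6. SREBF1 had 5.69, 5.73 and 5.72 in EED226 on day 6, against 7.36, 7.36 and 6.98 in DMSO and 6.39, 6.21 and 6.41 at 0 h. These 3 groups did not overlap, with EED226 lowest and DMSO highest. EED226 minus DMSO was -1.52 ± 0.13 (adjusted p = 1.244e-10, limma), after -0.67 ± 0.13 on day 3 (adjusted p = 0.00033). DMSO minus 0 h was 1.11 ± 0.13 on day 3 and 0.90 ± 0.13 on day 6. A second, dimmer SREBF1 probe set gave -0.50 ± 0.15 for EED226 minus DMSO on day 6, past the threshold. It gave 0.24 ± 0.15 for DMSO minus 0 h and -0.26 ± 0.15 for EED226 minus 0 h. Neither of these passed, so the sizes and the calls against 0 h depend on the probe set.

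SREBF2 had 7.35, 7.50 and 7.23 in EED226 and 7.73, 7.57 and 7.38 in DMSO on day 6, with 7.08, 7.17 and 7.07 at 0 h. By this brightest probe set EED226 and DMSO overlapped, and both lay above 0 h. For EED226 minus 0 h the other probe sets gave -0.32 ± 0.16 and -0.06 ± 0.11 and did not pass. EED226 minus DMSO was -0.20 ± 0.09 (adjusted p = 0.0685, limma) and passed without replicate 3 of DMSO (-0.29, adjusted p = 0.0127) or replicate 2 of EED226 (-0.27, adjusted p = 0.0282). DMSO minus 0 h was 0.46 ± 0.09 (adjusted p = 0.00652), and the mean over its 3 probe sets was 0.20 with an adjusted p of 0.302. The contrast between SREBF1 and SREBF2 was not tested.

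INSIG1 levels with EED226 and with DMSO overlapped on day 2, at 9.97, 9.86 and 10.21 in EED226 and 9.99, 9.87 and 10.27 in DMSO. On day 3 it had 10.71, 10.08 and 10.73 in EED226 and 10.74, 10.66 and 10.77 in DMSO, a difference of -0.21 ± 0.15 that did not pass (adjusted p = 0.374, limma). Its other probe sets gave -0.41 ± 0.17 (adjusted p over all probe sets 0.107) and -0.74 ± 0.23 (0.031) on day 3, so this call depends on the probe set. On day 6 it had 10.07, 9.69 and 9.83 in EED226, below all DMSO arrays at 10.89, 10.55 and 11.01 and above all 0 h arrays at 9.02, 8.67 and 8.80. EED226 minus DMSO was then -0.96 ± 0.15 (adjusted p = 3.252e-06), with -1.28 and -1.95 from the other probe sets.

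TMEM97, an endoplasmic reticulum protein known as the sigma-2 receptor and tied to cholesterol trafficking, did not pass in DMSO against 0 h. It had 10.50, 10.50 and 10.35 in DMSO on day 6 and 10.43, 10.45 and 10.31 at 0 h, which overlapped and differed by 0.05 ± 0.08. In EED226 it had 10.22, 10.03 and 10.10 on day 2, 9.86, 9.998 and 9.93 on day 3 and 8.71, 8.97 and 8.93 on day 6, with no overlap between those 3 times. EED226 minus DMSO on day 6 was -1.58 ± 0.08 (adjusted p = 1.094e-15, limma).

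STARD4, a soluble carrier of sterols, and LPIN1, a phosphatidate phosphatase, were higher with EED226. STARD4 had 8.65, 8.46 and 8.96 in EED226 and 8.21, 8.08 and 8.40 in DMSO on day 3, and 8.66, 8.47 and 8.62 in EED226 and 8.35, 8.24 and 8.05 in DMSO on day 6. Its groups did not overlap at either time, and the differences were 0.46 ± 0.13 (adjusted p = 0.00795, limma) and 0.37 ± 0.13 (adjusted p = 0.0168). These calls were lost without replicate 2 of DMSO (adjusted p = 0.0574) or replicate 3 of EED226 (0.0925) on day 3, and without replicate 3 of DMSO (0.0976) or replicate 1 of EED226 (0.0602) on day 6. LPIN1 had 6.81, 7.03 and 6.43 in EED226 on day 6, above 5.40, 5.49 and 4.87 in DMSO and 4.95, 5.39 and 4.85 at 0 h, a 2.83-fold rise of 1.5001 ± 0.18 over DMSO (adjusted p = 7.333e-08). A second LPIN1 probe set gave 1.49, and the dimmest gave -0.08 ± 0.11.

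Of the 6 genes of fatty acid supply and synthesis, 1 was higher and 3 lower with EED226 on day 3 and likewise on day 6. The shares of all genes were 11.7% higher and 11.2% lower on day 3, and 23.7% and 27.3% on day 6. In DMSO against 0 h 2 of the 6 were higher at both times, where 2.11% and 0.829% of all genes were. FASN, the fatty acid synthase, had the largest fall on day 6 among the brightest probe sets, while the dimmer probe sets of SCD and FASN itself give another order. It had 7.59, 7.71 and 7.86 in EED226 and 8.71, 8.41 and 8.38 in DMSO on day 3. On day 6 it had 5.97, 5.86 and 6.44 in EED226, against 8.65, 8.34 and 8.44 in DMSO and 7.90, 7.74 and 7.62 at 0 h. EED226 arrays overlapped the 0 h arrays on day 3 and lay more than 1 log2 unit below them on day 6.

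EED226 minus DMSO for FASN was -0.78 ± 0.12 (adjusted p = 2.363e-05, limma) on day 3 and -2.38 ± 0.12 (adjusted p = 4.615e-15) on day 6, which leaves 0.192 of the DMSO level and ranks 11 from the lowest of 19775 genes. A second FASN probe set, dimmer with a mean of 5.14, gave 0.02 ± 0.13 on day 3 and -0.36 ± 0.13 on day 6, so the size of the fall depends on the probe set. ACACA, the acetyl-CoA carboxylase that feeds FASN, differed by -0.71 ± 0.08 and ACLY, the citrate lyase that makes its acetyl-CoA, by -0.63 ± 0.06 on day 6. In DMSO against 0 h FASN had risen by 0.72 ± 0.12 and ACACA by 0.34 ± 0.08, and ACLY differed by 0.18 ± 0.06 and did not pass. ACSS2, the acetyl-CoA synthetase, and ME1, the malic enzyme that makes NADPH, passed in none of these comparisons, and ME1 stayed below the arrays' medians.

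AACS, the synthetase that turns acetoacetate into substrate for lipid synthesis, went the other way. It had 8.13, 8.64 and 8.17 in EED226 on day 6, above all arrays of DMSO at 7.34, 7.32 and 6.65 and of 0 h at 7.10, 7.34 and 6.92. The difference from DMSO was 1.21 ± 0.15 (adjusted p = 1.146e-07, limma), and DMSO differed from 0 h by -0.02 ± 0.15. On day 3 AACS had 8.06, 7.86 and 7.88 in EED226 and 7.46, 7.54 and 7.44 in DMSO. That difference of 0.46 ± 0.15 (adjusted p = 0.0288) was lost without replicate 1 or 3 of DMSO (0.0777 and 0.0788) or replicate 1 or 3 of EED226 (0.121 and 0.0525).

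The 3 genes of elongation and desaturation were all lower with EED226 on day 6, with a median of -1.54. At that time 27.3% of all genes were lower. On day 3, where 11.2% of all genes were lower, FADS2 alone passed by its brightest probe set. Both other ELOVL6 probe sets passed on day 3, at -0.40 ± 0.12 and -0.60 ± 0.18 (adjusted p over all probe sets 0.0251 and 0.0192), as did the 3 others of SCD, and the other FADS2 probe set did not, at -0.10. In DMSO against 0 h 2 of the 3 were higher on day 3 and 2 on day 6. ELOVL6, which elongates palmitate, had 8.95, 9.06 and 9.70 in EED226, 10.82, 10.87 and 10.80 in DMSO and 10.30, 10.47 and 10.39 at 0 h. The 3 groups did not overlap, and EED226 minus DMSO was -1.59 ± 0.13 (adjusted p = 3.41e-11, limma), while DMSO minus 0 h, at 0.44 ± 0.13, did not pass (adjusted p = 0.0768).

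FADS2, the first desaturase of polyunsaturated fatty acid synthesis, had 4.95, 5.09 and 5.36 in EED226 on day 6, 6.55, 6.79 and 6.67 in DMSO and 5.43, 5.86 and 5.93 at 0 h. Here too the 3 groups did not overlap, with EED226 lowest. The other FADS2 probe set gave -0.31 ± 0.13 for EED226 minus 0 h, which did not pass. The difference between EED226 and DMSO was -1.54 ± 0.15 (adjusted p = 7.182e-10, limma). On day 3 FADS2 had 6.31, 5.96 and 6.25 in EED226 and 6.83, 6.54 and 6.54 in DMSO, a difference of -0.46 ± 0.15 (adjusted p = 0.0203) that was lost without replicate 1 of DMSO (0.125) or replicate 2 of EED226 (0.131).

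SCD had 11.27, 10.91 and 11.42 in EED226 and 11.55, 11.27 and 11.51 in DMSO on day 3, which overlapped, and 10.10, 9.95 and 9.9999 in EED226 and 11.65, 11.34 and 11.52 in DMSO on day 6, which did not. The differences were -0.24 ± 0.11 (adjusted p = 0.138, limma) on day 3 and -1.49 ± 0.11 (adjusted p = 8.445e-12) on day 6. Its 3 dimmer probe sets gave larger falls on day 6, of -2.28, -2.75 and -2.38, and on day 3, of -0.68, -0.97 and -0.91, all past the threshold over all probe sets.

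**Figure D3:**
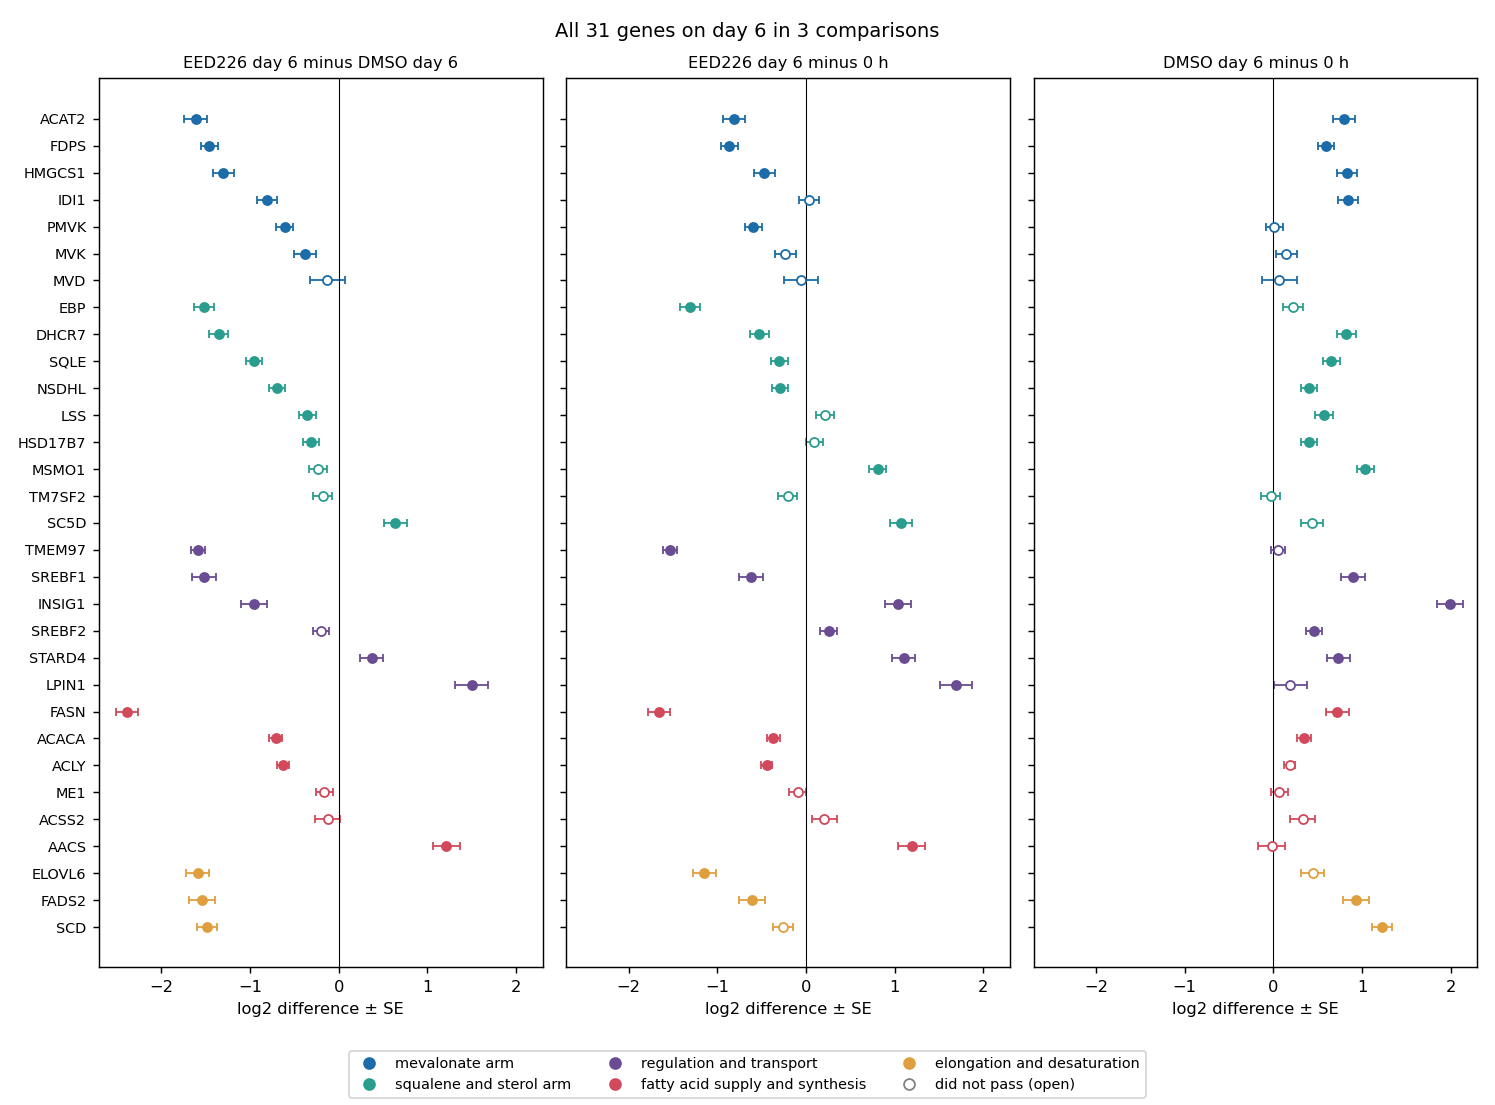
Log2 difference ± SE (horizontal axes) of each of the 31 measured genes (rows, coloured by role) on day 6 for EED226 minus DMSO, EED226 minus 0 h and DMSO minus 0 h, with filled points past the threshold and open points not. In EED226 minus DMSO 21 genes are lower and 4 higher, in EED226 minus 0 h 15 lower and 7 higher, and in DMSO minus 0 h 18 higher and 0 lower.

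Set against the starting cells, EED226 on day 3 still had more genes of the group above 0 h than below it. At that time 14 were higher and 1, TMEM97, was lower, where 27.9% of all genes passed, 14.4% higher and 13.5% lower. INSIG1 was higher by 1.68 ± 0.15, STARD4 by 1.21 ± 0.13, SCD by 0.92 ± 0.11 and MSMO1 by 0.90 ± 0.10. On day 6 7 were higher and 15 lower than at 0 h, where 48.2% of all genes passed, with 22.1% higher and 26.2% lower, and the median was -0.26 against -0.11 for all genes. These comparisons share arrays with those above.

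The 7 genes above 0 h with EED226 on day 6 were LPIN1 at 1.69 ± 0.18, AACS at 1.19 ± 0.15, STARD4 at 1.10 ± 0.13, SC5D at 1.07 ± 0.13, INSIG1 at 1.03 ± 0.15, MSMO1 at 0.81 ± 0.10 and SREBF2 at 0.25 ± 0.09. Among the 15 below 0 h FASN at -1.66 ± 0.12, TMEM97 at -1.53 ± 0.08, EBP at -1.30 ± 0.11 and ELOVL6 at -1.15 ± 0.13 had differences beyond 1 log2 unit. IDI1 at 0.03 ± 0.11, HSD17B7 at 0.10 ± 0.09, LSS at 0.22 ± 0.10 and SCD at -0.26 ± 0.11 rose in DMSO, were lower in EED226 than in DMSO on day 6, and did not pass between EED226 and 0 h by their brightest probe sets. The 3 other SCD probe sets were below 0 h by more than 1 log2 unit, at -1.17, -1.69 and -1.43, and 2 other IDI1 probe sets were above it, at 0.57 and 0.73, all past the threshold over all probe sets, whereas the other FASN probe set, at -0.15 ± 0.13, and the dimmest of INSIG1, at -0.38 ± 0.23, did not pass. SREBF2's other probe sets, at -0.32 ± 0.16 and -0.06 ± 0.11, had the opposite sign to its brightest and did not pass. The other probe sets of SREBF1, at -0.26 ± 0.15, and FADS2, at -0.31 ± 0.13, did not pass either. By role and brightest probe set, 0 of 7 mevalonate genes were higher than at 0 h and 4 lower. Among 9 sterol genes 2 were higher and 4 lower. Among 6 regulatory and transport genes 4 were higher and 2, SREBF1 and TMEM97, lower. The 6 fatty acid synthesis genes had 1 higher and 3 lower, and the 3 elongation and desaturation genes 0 higher and 2 lower. These counts are to be read against 22.1% of all genes higher and 26.2% lower.

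Of the 31 genes 21 have more than 1 probe set, and their calls did not always match. In this paragraph all calls, also those of the brightest probe sets, were adjusted over all probe sets other than controls. They can thus differ from the calls above, which were adjusted over genes. For EED226 minus DMSO on day 3 the brightest probe set and all others passed in 5 of the 21 genes, the brightest passed and some other did not in 5 (EBP, FADS2, FASN, SQLE and SREBF1), and some other passed where the brightest did not in 6 (ELOVL6, HMGCS1, INSIG1, LSS, SCD and SREBF2). On day 6 all passed in 14, and in 5 (LPIN1, LSS, MVK, SC5D and SQLE) some other did not. HMGCS1's brightest probe set, at -0.32 ± 0.12 on day 3, passed over genes but not over probe sets (adjusted p = 0.0714, limma). HMGCS1's other probe set gave -0.75 ± 0.16 on day 3 and -2.04 ± 0.16 on day 6, larger falls than its brightest. For DMSO on day 6 minus 0 h all passed in 4 genes, and in 9 (ACACA, FADS2, FASN, IDI1, LSS, NSDHL, SQLE, SREBF1 and SREBF2) some other did not. For EED226 on day 6 minus 0 h all passed in 8 genes. In 8 more (FADS2, FASN, INSIG1, LPIN1, SC5D, SQLE, SREBF1 and SREBF2) the brightest passed and some other did not. In 2 (IDI1 and SCD) some other passed where the brightest did not.

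The difference between EED226 and DMSO changed from day 3 to day 6 in 20 of the 31 genes, tested as an interaction in the same limma model. It moved down in 18 and up in 2, LPIN1 and AACS, where 24.9% of all genes passed, with 14.2% moving up and 10.7% moving down. FASN moved most, by -1.60 ± 0.18 (adjusted p = 1.343e-07), followed by ELOVL6 at -1.35 ± 0.18 and SCD at -1.24 ± 0.16. STARD4, SC5D, SREBF2 and MSMO1 were among the 11 that did not pass.

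Other measures moved with treatment at the late times. The mean log2 level of 12 S phase genes, the replication genes of dividing cells, was 10.14 to 10.29 in EED226 on day 3 and 8.71 to 9.22 in EED226 on day 6, against 10.69 to 10.76 in DMSO on day 6 and 10.70 to 10.76 at 0 h. With EED226 10 of the 12 were lower than DMSO on day 3 and 12 on day 6, with a median of -2.00, and in DMSO against 0 h 0 of 12 passed on day 2, 3 or 6 by limma, with 1 at an unadjusted p under 0.05 on each of these days. The mean of the 31 lipid synthesis genes was 7.99 to 8.02 in EED226, 8.57 to 8.79 in DMSO and 8.10 to 8.19 at 0 h. The actin 3′ minus 5′ probe set difference, a measure of RNA quality, was 3.50 to 4.14 in EED226 on day 6, against 2.87 to 3.29 in DMSO and 2.79 to 3.33 at 0 h. That of GAPDH was 0.52 to 0.74 in EED226 on day 6, against 0.24 to 0.29 in DMSO. Both already differed on day 3. Actin was then 3.26 to 3.74 in EED226 and 3.05 to 3.16 in DMSO, and GAPDH 0.30 to 0.44 and 0.23 to 0.24. With the actin difference as a covariate 3 genes were higher and 21 lower with EED226 on day 6, where 47.2% of all genes passed. The part of S phase genes in the result was not tested.

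**Figure D4:**
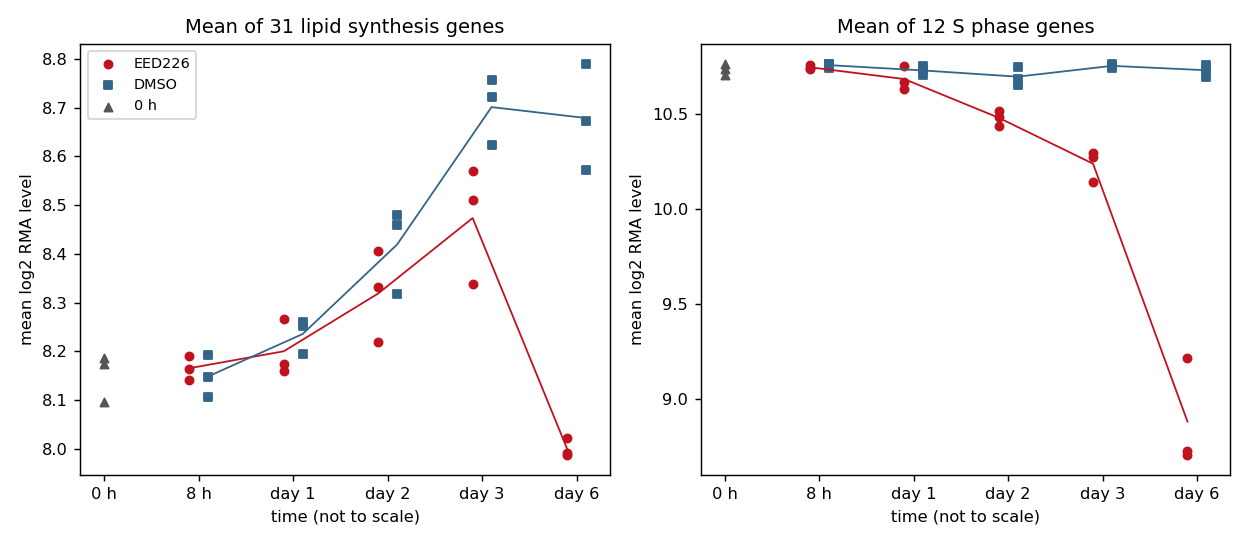
Mean log2 RMA level (vertical axes) of the 31 measured lipid synthesis genes on the left and of 12 S phase genes on the right for every array, against time (horizontal axis, not to scale), with circles and lines for EED226, squares and lines for DMSO and triangles for 0 h. The mean of the lipid genes climbed in DMSO and, to a lower level, in EED226 up to day 3, and lay at 7.99 to 8.02 in EED226 on day 6, while the S phase genes stayed near their 0 h level in DMSO and lay at 8.71 to 9.22 in EED226 on day 6.

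The arrays of DMSO on day 6 limit that comparison. Without replicate 3 of DMSO on day 6, 19 genes were higher and 0 lower in DMSO against 0 h, where 1.31% of all genes passed, and 3 were higher and 23 lower in EED226 against DMSO, where 44.6% passed.

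Other genes of the sterol and fatty acid pathways were taken from fixed lists. Few passed in DMSO, as among all genes, of which 1.72% passed on day 6, 0.829% higher and 0.895% lower. In the order below, 5 of 9, 8 of 9, 17 of 21, 19 of 20 and 11 of 12 listed genes were measured. In DMSO on day 6 against 0 h 0 of 5 genes of other sterol synthesis and uptake, 0 of 8 of SREBP processing, 0 of 17 of other fatty acid synthesis and elongation and 0 of 19 of fatty acid oxidation passed by limma, with 3, 1, 5 and 4 at an unadjusted p under 0.05. Of 11 genes of sterol efflux, esterification and liver X receptors, 1 was higher, MYLIP, the ligase that targets lipoprotein receptors, at 0.82 ± 0.15 (adjusted p = 0.00236).

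With EED226 on day 6 the same lists went in both directions, as did all genes, of which 51.0% passed, 23.7% higher and 27.3% lower. The counts of these short lists are to be read against those shares. Of 8 genes of SREBP processing 4 were higher and 1 lower, with a median of 0.16. INSIG2, the second retention protein, averaged 7.96 in EED226 and 6.68 in DMSO, a rise of 1.28 ± 0.15 (adjusted p = 5.93e-08, limma). ERLIN2, which takes part in the degradation of sterol-regulated membrane proteins, rose by 0.80 ± 0.12, and MBTPS1, the first protease to cut SREBPs, by 0.52 ± 0.08. INSIG2 and INSIG1 thus differed from DMSO in opposite directions on day 6.

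Of the 11 efflux and esterification genes 6 were higher and 1 lower with EED226, with a median of 0.40, where 23.7% of all genes were higher and 27.3% lower. ABCA1, the exporter of cellular cholesterol, averaged 8.42 in EED226 and 4.76 in DMSO, a rise of 3.66 ± 0.22 (adjusted p = 1.024e-13, limma). NPC2, which moves cholesterol out of lysosomes, rose by 2.45 ± 0.08, and LIPA, the lysosomal esterase, by 1.70 ± 0.08.

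In the same comparison, where 51.0% of all genes passed, 1 of 5 other genes of sterol synthesis and uptake was higher and 2 lower, with NUS1, of dolichol synthesis, at -0.86 ± 0.07, LBR, a sterol reductase, at -0.65 ± 0.07 and GGPS1, which makes geranylgeranyl diphosphate, at 0.30 ± 0.10. Of 17 other genes of fatty acid synthesis and elongation 4 were higher and 7 lower. SCD5, a desaturase related to SCD, averaged 10.05 in EED226 and 8.04 in DMSO, a rise of 2.01 ± 0.12, while GPAM, of glycerolipid synthesis, differed by -0.93 ± 0.08 and TECR, of fatty acid elongation, by -1.004 ± 0.09. Of 19 genes of fatty acid oxidation 8 were higher and 9 lower, with a median of 0.08, among them ECI2, an isomerase of unsaturated fatty acids, at 3.03 ± 0.14, and HADH and ACAA2, enzymes of the oxidation cycle, at -0.81 ± 0.06 and -0.78 ± 0.07.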

How the data were processed

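RNA was isolated with TRIZOL and hybridised to Affymetrix arrays after 3' IVT labelling, per the labels. Values are log2 levels, as deposited, that the authors obtained by RMA according to the submitters' processing notes. The sources used here do not give its version or say which arrays were normalised together.

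Of 54675 probe sets, 62 are controls, 41091 carry 1 gene symbol in the platform annotation, 1801 carry several and 11777 none. Genes are named from probe sets with 1 symbol, and the brightest over all 33 arrays stands for the gene, giving 19775 genes. Of the 31 genes described, 21 have more than 1 probe set, and 15 are read by a probe set that may match several transcripts. Calls of single probe sets were adjusted over all probe sets other than controls. The number of arrays limits the precision.

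Differences were fitted with limma 3.58.1 in R 4.3.3 on all 33 arrays and 11 groups, with 22 residual degrees of freedom, in 13 comparisons. P-values are two-sided and adjusted by Benjamini-Hochberg within each comparison over all 19775 genes, with a threshold of 0.05. On simulated data with 200 changed genes, made for EED226 minus DMSO on day 6 over 19775 genes, changes of 0.5 were called in 58% and changes of 1 in 100%, with 6 false calls. Far more genes, 51.0%, passed in the real comparison, and the simulated noise was independent between arrays. These rates thus check the fit and need not hold for the data of day 6.

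All 34 genes and the further lists were chosen with earlier results of these data known. Values per array are given for SREBF1, SREBF2, INSIG1, for the 4 genes that fell most and the 2 that rose most with EED226 on day 3 and day 6, and the 3 that rose most in DMSO on day 6. Array values of HMGCS1, SQLE, EBP, DHCR7 and SC5D were added after their values were seen. From each further list up to 3 genes with the smallest p on day 6 are named, and MYLIP was added because it alone passed in DMSO.

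Same-numbered arrays deviated together between EED226 and DMSO at 8 h and on days 1 and 2, with every correlation of deviations over 0.1 (0.199 to 0.318, 0.110 to 0.358 and 0.151 to 0.169), and not in every pair on day 3 or 6 or against 0 h. The alternatives were averaging all probe sets of a gene, the brightest probe set over the 0 h and DMSO arrays, array medians set equal, repeated quantile normalisation, genes above the median level, a trended and robust fit, array weights, the replicate block, the actin 3' minus 5' difference as a covariate, only the arrays of the groups compared, and leaving out each array. Promoter windows came from RefSeq, GRCh38.p14.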

Additional observations from a re-analysis of the deposited data

Results flagged for a closer look

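For 20 genes the difference between EED226 and DMSO on day 6 itself differed from that on day 3, by the interaction test in limma. The values here are the log2 difference on day 6 minus that on day 3. In the mevalonate arm they were ACAT2 (-1.20), HMGCS1 (-0.98), FDPS (-0.96), IDI1 (-0.51) and PMVK (-0.38). In the squalene and sterol arm they were EBP (-1.12), DHCR7 (-0.97), SQLE (-0.50) and NSDHL (-0.36). Among regulatory and transport genes TMEM97 (-1.15), SREBF1 (-0.85) and INSIG1 (-0.74) moved down and LPIN1 (1.12) moved up. Among fatty acid genes FASN (-1.60), ELOVL6 (-1.35), SCD (-1.24), FADS2 (-1.07), ACACA (-0.46) and ACLY (-0.42) moved down and AACS (0.76) moved up. The 12 S phase genes also moved down between these times, all 12 past the threshold with a median of -1.33, and their part in the result was not tested. IDI1's value holds for its brightest probe set.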

How the results depend on the processing

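Over the 13 comparisons and their alternatives, 196 recounts of the genes passing stayed within 1.5 times the reported count and 18 did not. EED226 minus DMSO on day 2, with 5 genes, gave 3 with array medians set equal (2 higher and 1 lower, so 33.3% of calls were lower in place of 60%), 8 with quantile normalisation repeated, 8 among genes brighter than the median, 10 with array weights and 2 with only the arrays of the groups compared, and 1 to 5 when single arrays were left out, the lowest without replicate 2 of EED226. On day 3 its 16 genes became 10 without replicate 1 of DMSO and 10 without replicate 2 of EED226, the lowest of 10 to 16. DMSO minus 0 h gave 1 gene on day 1, where 0 were reported, among genes brighter than the median, and 1 with the replicate block. On day 2 its 4 genes became 7 among genes brighter than the median, 7 with the replicate block and 1 with only the arrays of the groups compared. On day 6 its 18 genes became 2 with only the arrays of the groups compared, and 16 to 19 when single arrays were left out. The cause was not tested. In the fit with the replicate block, 7 genes passed between EED226 and DMSO on day 2 and 0 at 8 h and day 1. At these times the deviations of every same-numbered pair of arrays correlated over 0.1. That fit gave 19 genes on day 3 and 26 on day 6, where not every pair did. For EED226 minus DMSO on day 6 leaving out single arrays gave 24 to 26 genes. Over the genes whose array values were fixed for printing, 622 alternatives kept the call, 27 lost it, 23 gained one, and none changed direction. Among the losses were SREBF1, FASN, FDPS, FADS2, ACAT2, STARD4, SREBF2 and MSMO1 in DMSO minus 0 h on day 6 with only the arrays of the groups compared. Low levels limit ME1 and MVD, whose probe sets lie near or below the arrays' medians.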
